A study of Mus musculus with 2 samples.

Results

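Hepatocytes take up bile salts, organic anions and organic cations from portal blood through membrane carriers of a few gene families, and 4 of these families are described here in livers with and without Pnpla8. The members were every non-control probe whose gene name on the array began with Slco and a digit, Slc22a, Slc10a or Slc47a. They made up 58 probes of 50 genes, of 39429 probes and 31093 gene names in all. Of the 50 genes, 15 belonged to the Slco family, 26 to Slc22a, 7 to Slc10a and 2 to Slc47a. The choice used gene names alone and no measured value. The name "uptake transporters" holds for the first 3 families as they are usually described, while Slc47a genes encode proton antiporters that move organic cations out of the cell.

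Gene expression was measured with 1 one-colour array for each genotype, both from the same slide. The knockout array carried RNA from livers of Pnpla8-/- mice of strain C57BL/6N, and the wild-type array RNA from livers of C57BL/6N mice with both copies of Pnpla8. For each array, equal amounts of RNA of 5 animals had been pooled, and the age is 6 weeks in the sample labels and 8 weeks in the design text of the series. Sex, diet and the deleted part of the gene are not given in the sources used here. Pnpla8 encodes a phospholipase A of mitochondria and peroxisomes, and the series title sets the comparison in a study of how liver phosphatidylcholine is broken down to supply choline. With 1 pool on 1 array for a genotype, the spread between animals was not measured, the comparison could not be tested, and effects of the genotype, the pool and the place on the slide cannot be told apart.

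The Slco genes encode the organic anion transporting polypeptides (OATPs), which carry bile salts, bilirubin, steroid and thyroid hormone conjugates and many drugs across the sinusoidal membrane without a sodium gradient. Slc10a1 encodes NTCP, the sodium-coupled bile salt carrier of hepatocytes, and Slc10a2 its counterpart in ileum, kidney tubule and bile duct cells. The Slc22a genes encode the organic cation transporters, the carnitine and ergothioneine transporters and the organic anion transporters. In the mouse, several OATP genes lie side by side on chromosome 6 and a block of Slc22a genes on chromosome 19.

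On these arrays each signal comes from a probe of 60 bases. The probes below are those of the genes that lay past 2-fold and of the main bile salt carrier, and they are printed 5′ to 3′ with the positions that the array files give in build mm9.
Slco1a1 (chr6:141856493-141856552, minus strand): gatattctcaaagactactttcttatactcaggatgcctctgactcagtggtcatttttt
Slco1a4 (chr6:141754675-141754734, minus strand): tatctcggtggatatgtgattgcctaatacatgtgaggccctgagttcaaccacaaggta
Slc22a3 (chr17:12613372-12613431, minus strand): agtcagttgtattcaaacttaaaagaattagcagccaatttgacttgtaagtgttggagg
Slc10a6 (chr5:104035070-104035129, minus strand): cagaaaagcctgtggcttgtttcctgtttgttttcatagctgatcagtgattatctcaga
Slc10a1 first probe (chr12:82061470-82061529, minus strand): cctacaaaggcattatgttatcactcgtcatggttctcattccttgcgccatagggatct
Slc10a1 second probe (chr12:100686870-100686929, minus strand): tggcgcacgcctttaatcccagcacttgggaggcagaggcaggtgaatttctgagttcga
The array files tie each of these probes to a RefSeq transcript of its gene. Whether a probe lies in an exon was not looked up, because no mm9 annotation was used here. The second Slc10a1 probe lay 18.6 Mb from the first on chromosome 12, and the array file lists it for transcripts of 4930402H24Rik, Med16 and Spc24 as well. Its bases are of the kind known from the B1 element, a short interspersed repeat found throughout mouse genes. Its signal therefore cannot be assigned to Slc10a1 alone, and the text below reads the first probe for that gene. The counts, medians and gene ratios in the figures still use the median of both probes. No probe of a member shared a run of 20 bases with a probe of another gene on the array. Only printed probes were compared, and the second Slc10a1 probe passed as well, so this does not show that a probe is specific.

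A probe was counted as measured where the scanner software marked it well above background in both pools. The ratio given for a gene is the median over such probes, after scaling of each array to its 75th percentile. All log2 ratios are knockout over wild type. Of the 50 genes, 32 were measured, 3 passed the background mark in the wild-type pool alone, 0 in the knockout pool alone, and 15 in neither. Of all 31093 gene names, 19971 were measured, 1661 passed in the wild-type pool alone and 283 in the knockout pool alone. More genes passed in the wild-type pool alone over the whole array too. The scanner software's own error of a member's log2 ratio was 0.20 to 0.35. It covers spot noise and a fixed 10% error of the signal, not the difference between animals.

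Most transporters lay within 2-fold between the pools, but their ratios spread more widely than those of all measured genes. The 32 measured genes had a median log2 ratio of 0.16, with quartiles of -0.21 and 0.44, against a median of 0.04 and quartiles of -0.14 and 0.21 over all 19971 measured genes. The ratio was above 0 for 18 members and below 0 for 14, beside 56.9% above 0 over all genes. Of the 32 members, 28 lay within 2-fold, while 3.14% of all measured genes lay past 2-fold in either direction. Slco1a4, Slc22a3 and Slc10a6 were at least 2-fold higher in the knockout pool, which is 3 of 32 members beside 1.29% of all measured genes. Slco1a1 alone was at least 2-fold lower, which is 1 of 32 beside 1.85% of all measured genes. At 1.5-fold the counts were 3 higher, beside 4.42% of all genes, and 2 lower, beside 5.94%. The signs given here hold for this scaling: without it every ratio is 0.25 lower, so that the median is -0.087 for the members and -0.21 for all genes, and ratios between 0 and 0.25 change side. The members' median lay 0.12 above that of all genes, a gap that such a shift cannot alter. The gap was 0.084 with a normexp background. It was 0.19 without a filter on dim probes, a setting that also takes in genes not well above background.

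**Figure D1:**
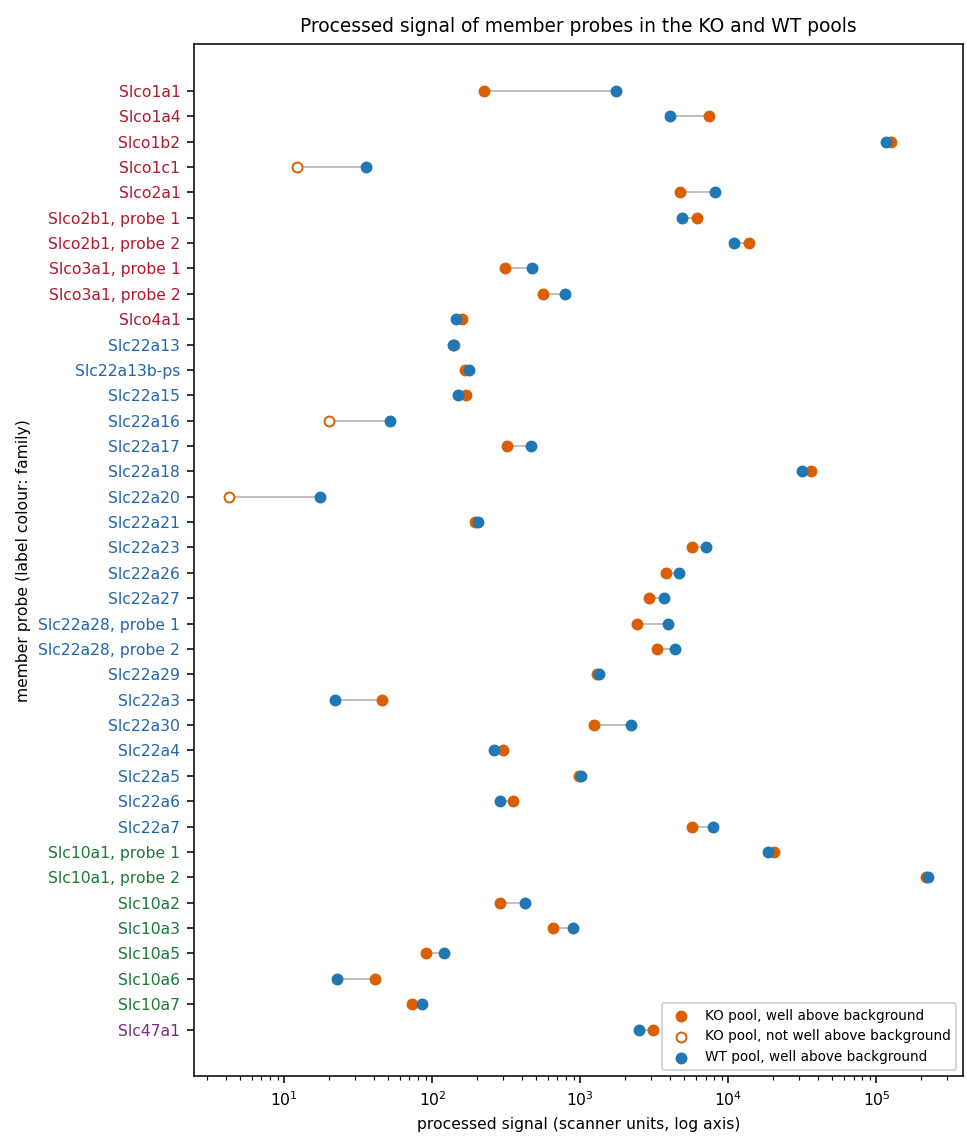
Processed signal (scanner units, log axis) of member probes well above background on at least 1 array; orange points are the KO pool, blue points the WT pool, open points are not well above background, and label colour marks the family. Points of 1 row can be compared with each other but not with other rows; Slco1a1 has the widest gap among the filled pairs, 224 in the KO pool and 1742 in the WT pool.

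Of the OATP genes of liver, Slco1a1 and Slco1a4 stood on opposite sides. Slco1a1 encodes Oatp1a1, a sinusoidal carrier of bile salts and steroid conjugates known in mice for higher expression in males. It had a processed signal of 224 in the knockout pool and 1742 in the wild-type pool. After scaling it was 6.57-fold lower in the knockout pool, with a log2 ratio of -2.72 and a scanner error of 0.21. That was the 7th lowest ratio of the 19971 measured genes. Slco1a4 encodes Oatp1a4, a carrier of bile salts, cardiac glycosides and other organic anions whose gene is known to respond to the xenobiotic receptors PXR and CAR. Its signal was 7420.4 in the knockout pool and 4037 in the wild-type pool, a log2 ratio of 1.12 with a scanner error of 0.20. It was 2.18-fold higher in the knockout pool and ranked as the 162nd highest ratio of all measured genes.

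The other liver OATPs differed by less. Slco1b2 encodes Oatp1b2, which takes up bilirubin and statins and is the rodent counterpart of human OATP1B1 and OATP1B3. Its signal was 125349 in the knockout pool and 116706 in the wild-type pool, with a log2 ratio of 0.35 and an interval from -0.05 to 0.75 from the scanner error alone. Slco2b1 encodes a carrier of sulphated steroids, and both of its probes read higher in the knockout pool. They gave 6137 and 13783.5 in the knockout pool and 4859 and 10925 in the wild-type pool. The gene was 1.496-fold higher in the knockout pool (log2 ratio 0.58), and because the 2 probes overlap by 38 bases they are not separate readings of the transcript. It was the closest of the members to 2-fold from inside on the higher side.

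Slco2a1, the prostaglandin transporter, pointed the other way. It read 4742 in the knockout pool and 8141 in the wild-type pool, which was 1.45-fold lower in the knockout pool (log2 ratio -0.53). Slco3a1, which carries prostaglandins and thyroid hormone, had a log2 ratio of -0.31, and its probes read 307 and 555 in the knockout pool and 470.4 and 786 in the wild-type pool. Both of its probes were lower in the knockout pool, at log2 ratios of -0.37 and -0.26. Slco4a1, a thyroid hormone transporter, read 159.6 in the knockout pool and 145.3 in the wild-type pool (0.38). Its interval from the scanner error, -0.04 to 0.80, reached below 0. Over the 7 measured Slco genes the median log2 ratio was 0.35 and the range -2.72 to 1.12, with 4 above 0 and 3 below.

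Slco1c1, the thyroxine transporter of the blood-brain barrier, passed the background mark in the wild-type pool alone, by 1 of its 2 probes. That probe read 12.2 in the knockout pool and 35.7 in the wild-type pool, a difference of at least 1.68-fold. For this bound the knockout signal was replaced by 17.9, the lowest one called well above background on that array. Slco1a5, Slco1a6, Slco4c1, Slco5a1, Slco6b1, Slco6c1 and Slco6d1 were not well above background in either pool.

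**Figure D2:**
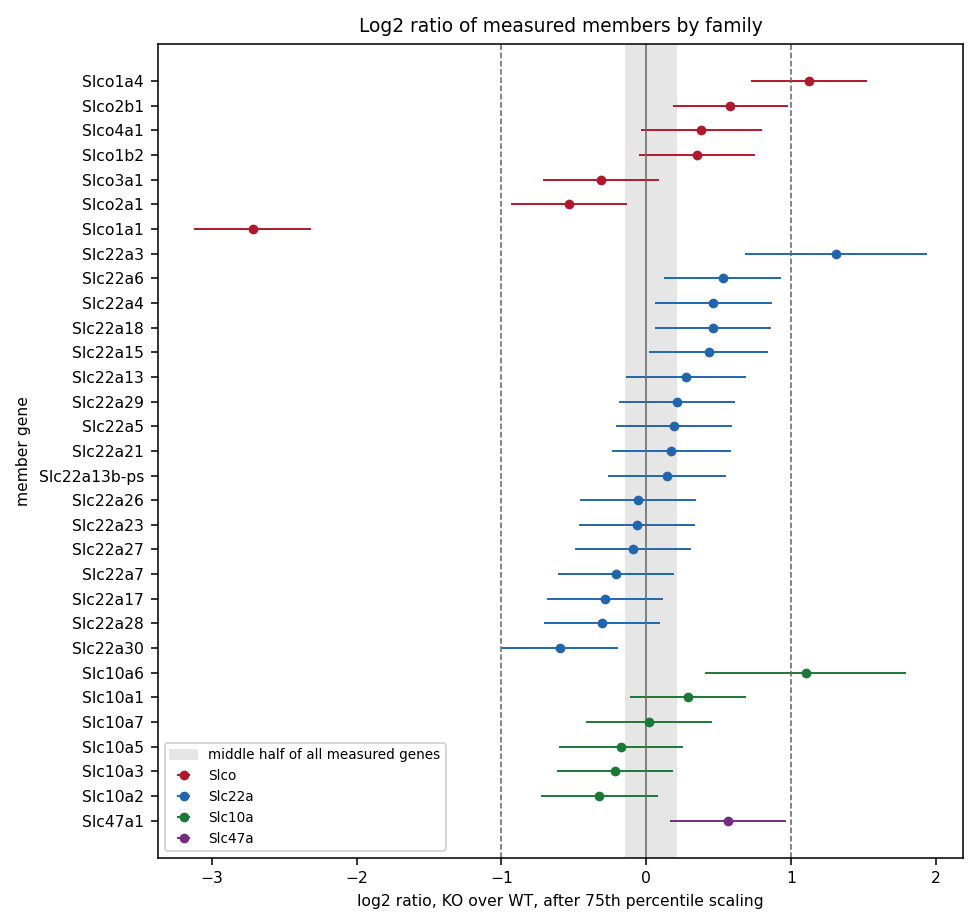
Log2 ratio (KO over WT, after 75th percentile scaling) of 31 measured members, ordered within each family; bars are 1.96 scanner errors either way and do not cover differences between animals, the grey band is the range between the quartiles of all measured genes (-0.14 to 0.21) and dashed lines mark 2-fold. Slco1a1 lies at -2.72, away from all others, and Slc22a3, Slco1a4 and Slc10a6 lie beyond the right dashed line with bars that reach below it.

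Slc10a1, the bile salt carrier of hepatocytes, stayed well within 2-fold. The first probe of Slc10a1 read 20422.5 in the knockout pool and 18570 in the wild-type pool, a log2 ratio of 0.38 with a scanner error of 0.20. The second, repeat-like probe read 216310 in the knockout pool and 223830 in the wild-type pool (0.20), and the median of both was 0.29. Slc10a2, the bile salt carrier of ileum and bile duct, read 286 in the knockout pool and 424 in the wild-type pool, a log2 ratio of -0.32 with an interval from -0.73 to 0.08.

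Slc10a6 encodes SOAT, a carrier of sulphated steroids rather than of bile salts. One probe read 40.9 in the knockout pool and 22.6 in the wild-type pool, a 2.15-fold higher level with a log2 ratio of 1.101. These signals stood close to the lowest signals called well above background, 17.9 for the knockout and 14.7 for the wild type, and the scanner error was 0.35, the largest among the members. A second Slc10a6 probe read 19.7 in the knockout pool and 13.3 in the wild-type pool and was not well above background on either array. The remaining members of the family are less well characterised as carriers. Slc10a3 had a log2 ratio of -0.22, Slc10a5 of -0.18 and Slc10a7 of 0.02, each with an interval that included 0. Slc10a4 was not well above background in either pool. The median over the 6 measured Slc10a genes was -0.08, with 3 above 0 and 3 below.

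Among the organic cation transporters, Slc22a3 had the highest ratio of the members described. It encodes OCT3, a monoamine and cation carrier of wide tissue range. Its signal was 45.9 in the knockout pool and 21.9 in the wild-type pool, 2.48-fold higher in the knockout pool, with a log2 ratio of 1.31 and a scanner error of 0.32. Both signals were weak. Slc22a2, which encodes the kidney carrier OCT2 and lies next to Slc22a3 on chromosome 17, was not well above background in either pool.

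The calls of Slco1a4, Slc22a3 and Slc10a6 changed with some settings. With a normexp background and its offset of 50, which is larger than the signals of Slc22a3 and Slc10a6, the log2 ratio of Slc22a3 was 0.61 and that of Slc10a6 0.43, both short of 2-fold, while Slco1a4 remained past it at 1.08. On unscaled signals Slco1a4 had 0.88 and Slc10a6 0.86, short of 2-fold, and Slc22a3 had 1.06. Slco1a1 lay beyond 2-fold under every one of the 13 other settings, from -2.96 to -2.37.

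**Figure D3:**
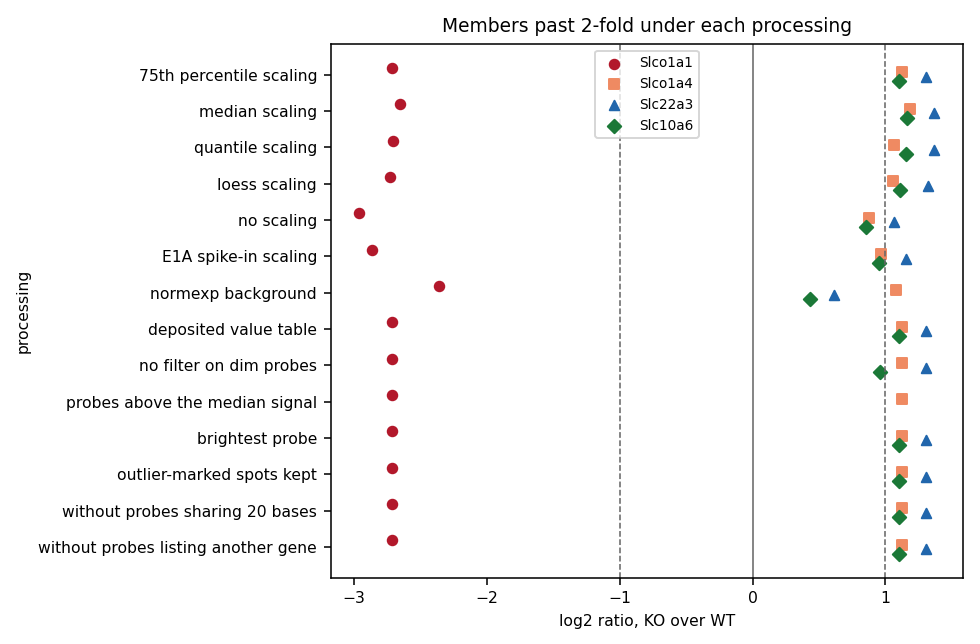
Log2 ratio (KO over WT) of the 4 members past 2-fold, each row a processing setting with the one used in the text at the top; dashed lines mark 2-fold. Slco1a1 stays between -2.96 and -2.37 in every row, while the other 3 cross the right dashed line in some rows, and Slc22a3 and Slc10a6 have no point where probes below the median signal were left out.

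The carnitine and ergothioneine transporters lie together on chromosome 11 and all 3 had ratios slightly above 0, of which those of Slc22a5 and Slc22a21 were below 0 without scaling. Slc22a4, the ergothioneine transporter OCTN1, read 302 in the knockout pool and 259.7 in the wild-type pool (log2 ratio 0.46). Slc22a5, the main carnitine transporter OCTN2, read 976 in the knockout pool and 1015 in the wild-type pool (0.19). Slc22a21, the mouse carnitine transporter Octn3, read 193 in the knockout pool and 203 in the wild-type pool (0.17). The intervals of Slc22a5 and Slc22a21 included 0, and that of Slc22a4 ran from 0.06 to 0.87. Of 9 genes of carnitine synthesis and shuttling, all were measured, 7 had ratios above 0 and 2 below, the median was 0.26, and 0 were past 2-fold. Cpt1a, the carnitine acyltransferase of the outer mitochondrial membrane, had 0.31, and Bbox1, the last enzyme of carnitine synthesis, 0.26.

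The organic anion transporters of the Slc22a family spread around 0. Slc22a7 encodes OAT2, the main member of this group in liver, and read 5714 in the knockout pool and 7828 in the wild-type pool (log2 ratio -0.21). Slc22a6, the kidney transporter OAT1, read 349 in the knockout pool and 287 in the wild-type pool (0.53), with an interval from 0.12 to 0.93. Slc22a13, a carrier of urate and nicotinate, had 0.27, and the neighbouring pseudogene Slc22a13b-ps 0.14. Slc22a8 (OAT3), Slc22a12 (the urate transporter URAT1), Slc22a14, Slc22a19 and Slc22a22 were not well above background in either pool. Of 6 kidney marker genes, Umod, Slc12a1 and Kap were not well above background in either pool, while Slc34a1 and Aqp2 were measured at log2 ratios of 0.35 and 0.28.

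The mouse carries a block of organic anion transporter genes on chromosome 19 whose substrates are less well known, and 4 of its 5 measured genes from Slc22a26 to Slc22a30 had ratios below 0, Slc22a26 so narrowly that median scaling put it at 0.0054. Slc22a30 read 1236 in the knockout pool and 2211 in the wild-type pool, which was 1.51-fold lower in the knockout pool (log2 ratio -0.59, interval -0.99 to -0.19). It was the member closest to 2-fold from inside on the lower side. Slc22a28 had log2 ratios of -0.46 and -0.15 at its 2 probes, which read 2404 and 3296 in the knockout pool and 3919 and 4349 in the wild-type pool. The array files list both of these probes for the transcript of Slc22a30 too, so the signals of the 2 genes cannot be told apart at those probes. Slc22a26 had -0.06, Slc22a27 -0.09 and Slc22a29 0.21, and all 3 intervals included 0.

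The Slc22a genes with other or unsettled roles were within 2-fold where measured on both arrays. Slc22a18, an imprinted gene, read 36200.5 in the knockout pool and 31189 in the wild-type pool (log2 ratio 0.46, interval 0.06 to 0.86). Slc22a15 had 0.43, Slc22a17 -0.29 and Slc22a23 -0.06. Slc22a16, a carnitine transporter known from testis, passed the background mark in the wild-type pool alone. It read 20.1 in the knockout pool and 51.3 in the wild-type pool, 2.16-fold lower in the knockout pool after scaling. The knockout signal exceeded 17.9, the lowest called well above background on that array. The value is therefore the plain ratio of the probe, with a scanner error of 0.37 in log2, and not a lower limit. Of the 1661 genes in that class, 9.39% had a bound of 2-fold or more. No member fell in the opposite class of 283 genes, where the share was 66.4%. Slc22a20, the olfactory transporter OAT6, read 4.22 in the knockout pool and 17.5 in the wild-type pool, too dim for any bound. Over the 18 measured Slc22a genes the median log2 ratio was 0.16 and the range -0.59 to 1.31, with 10 above 0 and 8 below.

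Slc47a1 encodes MATE1, which passes organic cations from the hepatocyte into bile. It read 3113 in the knockout pool and 2493 in the wild-type pool, 1.48-fold higher in the knockout pool (log2 ratio 0.57, interval 0.17 to 0.97). Slc47a2, the kidney form, was not well above background in either pool.

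By RefSeq gene order, 28 of the 50 members lay next to another member, in 7 groups. On chromosome 6 the order was Slco1c1, Slco1b2, Slco1a4, Slco1a1, Slco1a6 and Slco1a5, so the member with the lowest ratio stood next to one of the 3 past 2-fold higher. In the chromosome 19 group the 6 measured genes of 8 ran from -0.59 to 0.53, with 2 above 0. The 3 measured genes on chromosome 11 around Slc22a5 ran from 0.17 to 0.46. At this scaling the groups on chromosomes 6 and 19 thus held ratios on both sides of 0. The chromosome 11 group and the pair Slc22a13 and Slc22a13b-ps on chromosome 9 did not. Without scaling both of these held both sides as well: Slc22a5 had -0.056 and Slc22a21 -0.073 beside Slc22a4 with 0.22. Slc22a13b-ps then had -0.10 beside Slc22a13 with 0.029.

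**Figure D4:**
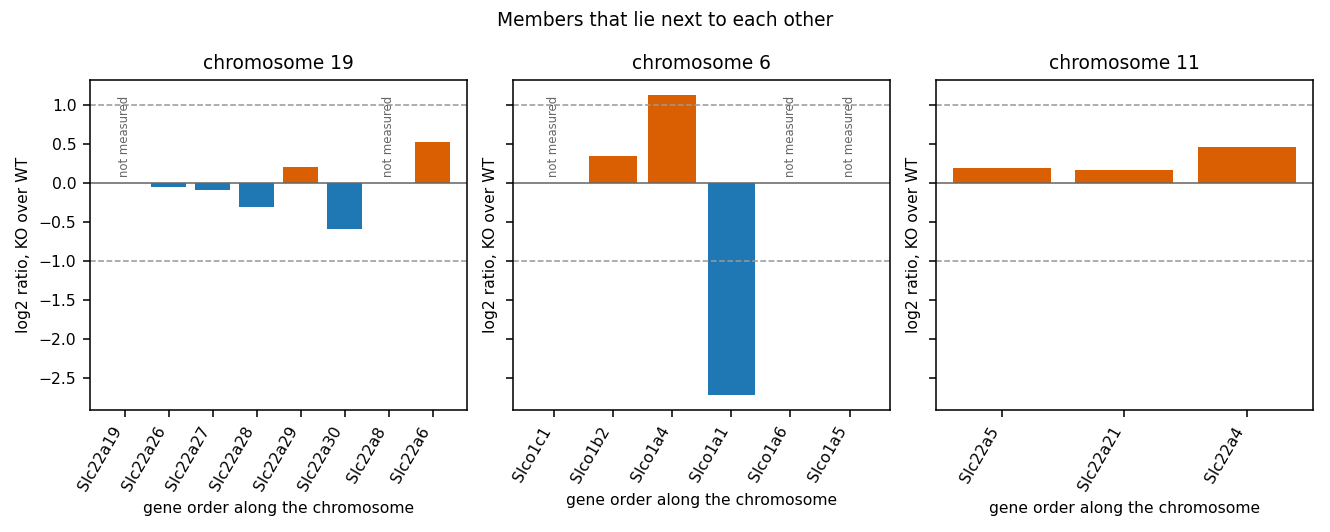
Log2 ratio (KO over WT) of members that lie next to each other, in gene order along 3 chromosomes; orange bars are higher and blue bars lower in the KO pool, dashed lines mark 2-fold, and genes not well above background on both arrays carry no bar. On chromosome 6 the bars of Slco1a4 (1.12) and Slco1a1 (-2.72) stand side by side on opposite sides of 0.

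The promoter windows of Slco1a4 and Slco1a1 are shown because these neighbours had opposite ratios. Each runs from 250 bases before to 50 after the start in RefSeq on GRCm38.p6, 5′ to 3′ on the gene's strand. Capitals mark matches, on either strand, to AGGTCA (a core of nuclear receptor sites) or TTCNNNGAA (a STAT site).
Slco1a1 (chr6:141946913-141947212, minus strand): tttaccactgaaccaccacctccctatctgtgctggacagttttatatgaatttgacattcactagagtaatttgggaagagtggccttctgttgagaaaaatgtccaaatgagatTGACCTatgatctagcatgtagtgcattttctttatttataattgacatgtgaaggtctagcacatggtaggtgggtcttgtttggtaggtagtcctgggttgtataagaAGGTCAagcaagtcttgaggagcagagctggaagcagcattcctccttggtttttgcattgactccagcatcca
Slco1a4 (chr6:141856171-141856470, minus strand): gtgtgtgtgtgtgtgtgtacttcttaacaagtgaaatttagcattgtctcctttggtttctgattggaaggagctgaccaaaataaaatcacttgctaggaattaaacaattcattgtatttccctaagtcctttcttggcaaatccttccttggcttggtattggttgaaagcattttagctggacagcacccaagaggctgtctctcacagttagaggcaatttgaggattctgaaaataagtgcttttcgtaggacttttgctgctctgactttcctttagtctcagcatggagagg
The Slco1a1 window held 2 matches to AGGTCA, in opposite directions, and none to TTCNNNGAA. The Slco1a4 window held neither motif. No matches shared bases. Promoter windows were found for 41 of the 50 members, 47 windows in all. Of them, 6 held AGGTCA and 9 TTCNNNGAA, which is 12.8% and 19.1%. Over all 32851 windows of mouse genes the shares were 16.3% and 8.30%. A match describes letters in a window and does not show that a factor binds there.

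The exporters and enzymes that handle the same substrates inside the hepatocyte lay within 2-fold where measured, with 1 exception. Of 14 exporter genes 13 were measured, with a median log2 ratio of 0.11, 8 above 0 and 5 below. Abcb11, the bile salt export pump, had -0.20 and Abcb4, the phosphatidylcholine floppase, -0.22. Abcc2, which exports bilirubin conjugates into bile, had 0.40, and Abcb1a, a drug pump, 0.73. Slc51b, a subunit of the basolateral bile salt exporter, was the 1 exporter of 13 past 2-fold, beside 3.14% of all measured genes. It read 127 in the knockout pool and 363 in the wild-type pool, 2.41-fold lower in the knockout pool. Its partner subunit Slc51a was not well above background in either pool. The 6 enzymes that activate and conjugate bile acids had a median of 0.06 and 0 past 2-fold, and the 5 proteins that bind or chaperone these carriers at the membrane had a median of -0.08 and 0 past 2-fold.

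Of 16 genes known to regulate uptake transporters all were measured, 12 had ratios above 0 and 4 below, the median was 0.13, and 0 were past 2-fold. The highest were Nr1i3, which encodes CAR, with 0.64, and Nr1i2, which encodes PXR, with 0.52. Nr1h4, the bile acid receptor FXR, had 0.17, and its target Nr0b2 0.03. Hnf4a had 0.23 and Stat5b, the growth hormone signal transducer, 0.09. Outside the 4 families, 254 of 337 other SLC genes were measured, with a median of 0.02, 140 above 0 and 114 below, and 5.12% past 2-fold in either direction, against 3.14% of all measured genes.

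Genes known for a sex difference in mouse liver, of which Slco1a1 is one, were examined because that gene had the lowest ratio. Of 12 male-biased genes 11 were found under their name and measured, Selenbp2 not being analysed here. Their median log2 ratio was -0.35, with 2 above 0 and 9 below, beside 56.9% above 0 over all genes. Slco1a1 and the steroid dehydrogenase gene Hsd3b5 were at least 2-fold lower, beside 1.85% of all measured genes. Hsd3b5 read 68.3 in the knockout pool and 859 in the wild-type pool, 10.6-fold lower in the knockout pool. Cyp4a12a and Cyp2d9, both classical male-biased genes, had 0.16 each. Of 12 female-biased genes 11 were measured, Cyp3a41a not being analysed here. The median was 0.45, with 8 above 0 and 3 below. Of the 11, 5 were at least 2-fold higher, beside 1.29% of all measured genes, and 1 at least 2-fold lower, beside 1.85%. Sult1e1, the oestrogen sulphotransferase, was 32.4-fold higher in the knockout pool, while Cyp3a44 was 2.30-fold lower. These lists and Slco1a1's place in one were chosen with earlier results of these data known, so they are no independent evidence of a direction.

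**Figure D5:**
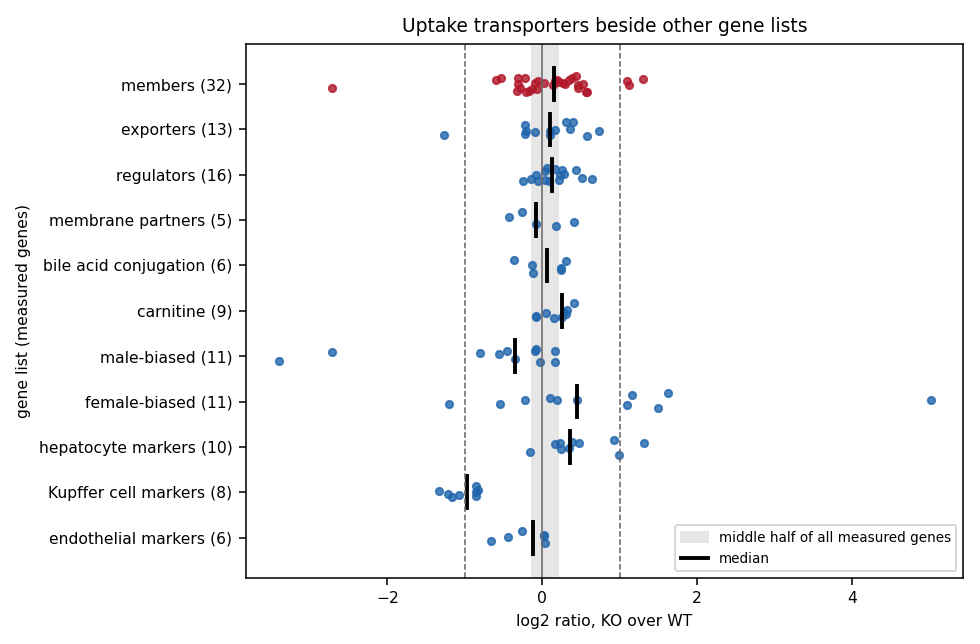
Log2 ratio (KO over WT) of the measured genes of each list, with the number measured in brackets; points are genes, black bars medians, the grey band the range between the quartiles of all measured genes (-0.14 to 0.21) and dashed lines 2-fold. The 32 members centre at 0.16, the Kupffer cell markers all lie left of 0 with a median of -0.97, and Slco1a1 is plotted both among the members and among the male-biased genes.

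The tissue matched its label, and marker genes of its cell types differed between the pools. All 10 hepatocyte markers were measured, 9 with ratios above 0 at this scaling, at a median of 0.36. Their summed signal, in units of each array's 75th percentile, was 2543 in the knockout pool and 1915 in the wild-type pool. All 8 Kupffer cell markers had ratios below 0, with a median of -0.97. Of them, 4 were at least 2-fold lower, beside 1.85% of all measured genes. Their summed signal was 52.6 in the knockout pool and 108 in the wild-type pool. The 6 sinusoidal endothelial markers had a median of -0.12 (3 above 0), the 6 cholangiocyte markers -0.11 (2 above 0), the 6 stellate cell markers -0.29 (0 above 0), the 3 measured erythroid markers of 4 -0.01 and the 4 lymphocyte markers -0.77. In pooled tissue, fewer cells of a type and less RNA per cell cannot be told apart. The part of these markers in the transporter ratios was not tested.

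The knockout array had 28212 spots well above background and the wild-type array 30141, of 43020 spots each, and their 75th percentiles were 1018 and 1207. The 8 spike-in controls used had a median log2 ratio of 0.15 after scaling. Repeated spots of a probe had a median SD of 0.05 in their log2 ratio (298 probes), and different probes of a gene 0.09 (4274 genes). Pnpla8 itself read 4.45 in the knockout pool, not well above background, and 144.5 in the wild-type pool, a difference of at least 6.81-fold; whether its probe lies in the deleted part is not known here.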

How the data were processed

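Total RNA was purified on silica columns, and 200 ng per pool was amplified and labelled with Cy3, per the labels' protocols. The authors read spot intensity from the scans with Agilent Feature Extraction, of version 11.5.1.1 according to the submitters' processing notes. The deposited scanner files hold this intensity per spot, unlogged. The array coordinates are in build mm9, per the file headers. The deposited value table held the processed intensity divided by a constant per array, 1018.65 for the knockout and 1207.25 for the wild type, with column medians of 0.0763 and 0.0800; it was neither logged nor centred, and no source used here says how the constants were set. The number of per-sample columns left unused was 0.

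Processed signals were taken to log2 and lowered by the 75th percentile of the array, computed without control spots. Spots with an outlier mark (170 on the knockout array, 119 on the wild-type array) and control spots were left out, spots of a probe were averaged, and the median over measured probes gave a gene's ratio. A bound compares the bright scaled signal with the floor of the dim array (its lowest scaled signal well above background) or, if higher, with the dim signal itself. Intervals are 1.96 scanner errors either way, a 95% range for the scanner software's own error alone. They leave out the choice of scaling, without which every ratio is 0.25 lower. Negative controls stood higher on the knockout array after scaling, with a median scaled log2 signal of -7.90 (knockout) and -8.42 (wild type). Scaling raised the knockout array by 0.25 against the wild type, which is less than this gap. Part of the gap was thus present before scaling.

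Genes keep the array's names, which can be old; all 50 members matched the RefSeq gene table of GRCm38.p6, used for gene order (gaps up to 500 kb), names and promoter windows alone. Every member may be named, as may listed genes, of which the text gives examples; 1 member, 2 listed genes and 1 of the 3 promoter motifs searched are not reported here, and these genes stay in the counts. Other genes are named from the gene lists, apart from Pnpla8 and 3 genes that share a probe with Slc10a1, which were named after their values were seen. Members and lists were chosen with earlier results of these data known. Groups followed the genotype in the labels. With 1 array per group no test was made and no p-value is given. Precision is limited by the number of arrays. Alternatives were other scalings, a normexp background (offset 50), the deposited value table, and other probe filters and summaries. Simulated data with known folds were used to test the steps. The simulated folds were given only to genes with brighter wild-type signals than Slc22a3 and Slc10a6, so weak signals such as theirs were not covered. Python 3.11.15 with pandas 2.3.3, numpy 2.4.6 and statsmodels 0.14.6 (loess, span 0.3), and limma 3.58.1 in R 4.3.3 (normexp), were used.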

Additional observations from a re-analysis of the deposited data

How the results depend on the processing

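The 32 member ratios were recomputed under 13 other settings; 26 members kept their side of 0 wherever they were measured and 6 (Slc10a7, Slc22a5, Slc22a13b-ps, Slc22a21, Slc22a26 and Slc22a29) did not. Leaving out probes that list another gene was added after the data were seen. Without scaling the median of all genes was -0.21 and with E1A spike-in scaling -0.11, against 0.04 as reported. The members' median was then -0.087 and 0.0052, that of Slco 0.10 and 0.20, of Slc22a also -0.087 and 0.0052, of Slc10a -0.32 and -0.23, and of Slc47a 0.32 and 0.41. Both settings shift all genes alike, so the gap of 0.12 between the members' median and that of all genes was fixed; it ranged from 0.084 (normexp) to 0.19 (no filter on dim probes) over the others. Without a filter on dim probes the medians were 0.28 for the members, 0.52 for Slco, 0.019 for Slc10a and 0.29 for Slc47a. Genes not well above background enter these medians and the gap of 0.19, among them 7 of the 15 Slco genes. The Slco value is the ratio of Slco4c1, which read 3.83 in the knockout pool and 3.15 in the wild-type pool. It therefore describes background and not expression. The Slco median was 0.15 with quantile scaling and 0.20 with loess scaling. The Slc10a median was 0.062 with a normexp background and -0.20 with probes above the median signal. The number of members at 2-fold or more higher in the knockout pool was 1 without scaling and 1 with spike-in scaling (Slc22a3 in both), and 1 with normexp and 1 with probes above the median signal (Slco1a4 in both). The number lower was 3 without a filter (Slc22a16 and Slc22a20 beside Slco1a1) and 2 at 1.5-fold.

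Over all genes, 258 were past 2-fold higher and 370 lower, so 41.1% of the calls were higher. The numbers were 116 and 761 (13.2% higher) without scaling, 143 and 589 (19.5%) with spike-in scaling, 135 and 128 (51.3%) with normexp, 995 and 1239 without a filter, and 145 and 221 with probes above the median signal. No paired analysis was possible because each group has 1 sample, and for the same reason no replicate could be left out. Signals near background limit what can be read from Slc22a3, Slc10a6 and the 3 genes that passed the background mark on the wild-type array alone.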
